A study of Mus musculus with 30 samples.

Results

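The cell division program was followed through 45 protein-coding genes in microglia and astrocytes sorted from the spinal cord of mice with experimental autoimmune encephalomyelitis (EAE), an autoimmune model of multiple sclerosis. The genes were chosen by name as well-known parts of DNA replication, mitosis and their control, and all 45 were found among the 30952 genes of the table. They were divided by role into 13 DNA replication genes, 25 mitosis genes and 7 regulators or chromatin genes. The replication and mitosis genes are reported apart.

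RNA was measured in 30 libraries, 15 of microglia and 15 of astrocytes, from female C57BL/6 mice. Each cell type had 4 libraries from naive mice, 6 from EAE mice given vehicle (EAE-vehicle) and 5 from EAE mice given a RIPK1 kinase inhibitor (EAE-RIPK1inh). EAE was induced with MOG35-55 peptide, and dosing began at a clinical score of about 1 and lasted 3 days, with 20% Captisol as vehicle or GSK'547 at 50 mg/kg, each by oral gavage 2 times a day. Microglia were gated as CD11b+CD45intCX3CR1+ and astrocytes as GLAST+CD11b-CD45-CD140a-, so naive mice differed from EAE mice in immunization, disease and gavage together. The gates cannot tell resident cells from recruited cells that carry the same surface proteins.

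Cells copy their DNA once per division, in S phase, and separate the copies in mitosis. The E2F transcription factors switch on the replication genes as a cell leaves G1, and the mitotic genes follow in G2 under FoxM1 and the MMB complex, which holds B-Myb. Microglia of the healthy adult spinal cord divide rarely and can divide during neuroinflammation, while mature astrocytes divide little except after injury.

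The start regions of a few of these genes carry the short motifs through which this timing is known to be read. They are printed for 5 genes whose EAE-vehicle microglia libraries all lay above the naive ones (Cdk1, Ccnb2, Ube2c, Rrm2 and Mcm3) and for a pair whose libraries overlapped (Mcm6 and Pcna). Each window is the 120 bases before the RefSeq start on build GRCm38.p6, read 5′ to 3′ on the gene's strand. All distances are counted from that start. The gene positions of GENCODE M21, used elsewhere here, place some starts differently. By them the whole Pcna window lies inside the gene, which starts at 132253314, and parts of the Cdk1, Ube2c and Rrm2 windows lie inside theirs. Capitals mark the letters of the cell cycle homology region (CHR, TTTGAA or TTTAAA), the CCAAT box and the E2F site (TTCCCGC, or TTGGCGC, or TTCGCGC), each searched on both strands.
Cdk1, chr10:69352913-69353032, minus strand: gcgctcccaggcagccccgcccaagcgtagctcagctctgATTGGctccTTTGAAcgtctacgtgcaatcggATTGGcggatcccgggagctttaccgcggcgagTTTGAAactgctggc
Ccnb2, chr9:70421555-70421674, minus strand: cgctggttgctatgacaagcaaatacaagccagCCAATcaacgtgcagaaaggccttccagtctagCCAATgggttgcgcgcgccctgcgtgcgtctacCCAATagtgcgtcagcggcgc
Ube2c, chr2:164769809-164769928, plus strand: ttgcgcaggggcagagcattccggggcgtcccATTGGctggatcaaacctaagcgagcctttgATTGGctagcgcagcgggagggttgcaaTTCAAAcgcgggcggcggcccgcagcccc
Rrm2, chr12:24708134-24708253, plus strand: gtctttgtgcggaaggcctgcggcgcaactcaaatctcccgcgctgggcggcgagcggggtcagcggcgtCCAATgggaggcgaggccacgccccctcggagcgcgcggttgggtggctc
Mcm3, chr1:20820313-20820432, minus strand: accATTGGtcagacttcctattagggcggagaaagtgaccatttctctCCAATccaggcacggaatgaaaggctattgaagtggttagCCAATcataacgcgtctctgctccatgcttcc
Mcm6, chr1:128359706-128359825, minus strand: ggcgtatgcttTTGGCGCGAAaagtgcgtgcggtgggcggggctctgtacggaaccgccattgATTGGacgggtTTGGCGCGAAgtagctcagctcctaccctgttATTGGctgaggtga
Pcna, chr2:132253181-132253300, minus strand: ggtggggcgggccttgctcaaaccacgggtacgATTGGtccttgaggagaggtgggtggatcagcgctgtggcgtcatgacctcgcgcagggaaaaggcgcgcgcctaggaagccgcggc

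In Cdk1 the CHR motif stood 15 and 71 bases before the start, and the CCAAT letters at 48 and 80 bases. Ccnb2 had 3 CCAAT boxes, the first letters of which lay 87, 54 and 21 bases before its start. Mcm6 had 2 pairs of E2F letters, each pair read on both strands within the overlapping stretch TTGGCGCGAA. Promoter windows of 250 bases were given for 36 of the 45 genes, as 39 promoters, and 9 genes were not in the promoter table. The CHR letters were in 61.9% of the 21 mitosis promoters, in 23.1% of the 13 replication promoters and in 25.2% of all 32851 mouse promoters. The E2F letters were in 53.8% of the replication promoters, 14.3% of the mitosis promoters and 6.69% of all promoters. The CCAAT letters were in 84.6% of the replication and 90.5% of the mitosis promoters, against 33.8% of all. The mitosis promoters thus held CHR letters more often than the replication promoters, and the replication promoters held E2F letters more often. These are counts of letters and do not show that a protein binds there.

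Values are log2 FPKM as deposited (FPKM scales fragments by transcript length and library size), normalized so that all libraries hold the same set of values from 0 to 15.34. The read depth of the libraries is unknown, and a gene without signal holds a small value near 0 rather than an exact count of 0. The number of genes with signal ran from 8710 to 20398 in microglia and from 6728 to 22981 in astrocytes. The library with the fewest among microglia was naive library 4, in which 21 of the 45 genes had signal and genes without signal held values up to 1.74. Mean levels of 10 microglia markers were 10.00 to 10.62 in naive, 7.18 to 7.92 in EAE-vehicle and 7.54 to 8.93 in EAE-RIPK1inh microglia. The same list lay between 0.87 and 3.45 in astrocyte libraries, and 8 astrocyte markers lay between 7.78 and 9.76 there. On these 2 lists the cell type labels fitted. Astrocyte libraries also held oligodendrocyte markers at a mean of 6.19 to 9.91, neuron markers at 3.88 to 6.07 and erythrocyte markers at 0.08 to 8.67. The oligodendrocyte mean was 6.63 in naive, 8.77 in EAE-vehicle and 8.54 in EAE-RIPK1inh astrocytes. The astrocyte marker mean was 9.63, 8.36 and 9.02, so in EAE-vehicle the oligodendrocyte markers stood higher. The astrocyte libraries were therefore not free of other cells or their RNA. The annotation marks 22 of the 45 genes as confounded (among them Mki67, Top2a, Ube2c, Stmn1 and Ezh2), and 15717 of all 30952 genes. The meaning of that mark was not given in the sources used here, and the levels of these genes are taken as less certain.

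**Figure D1:**
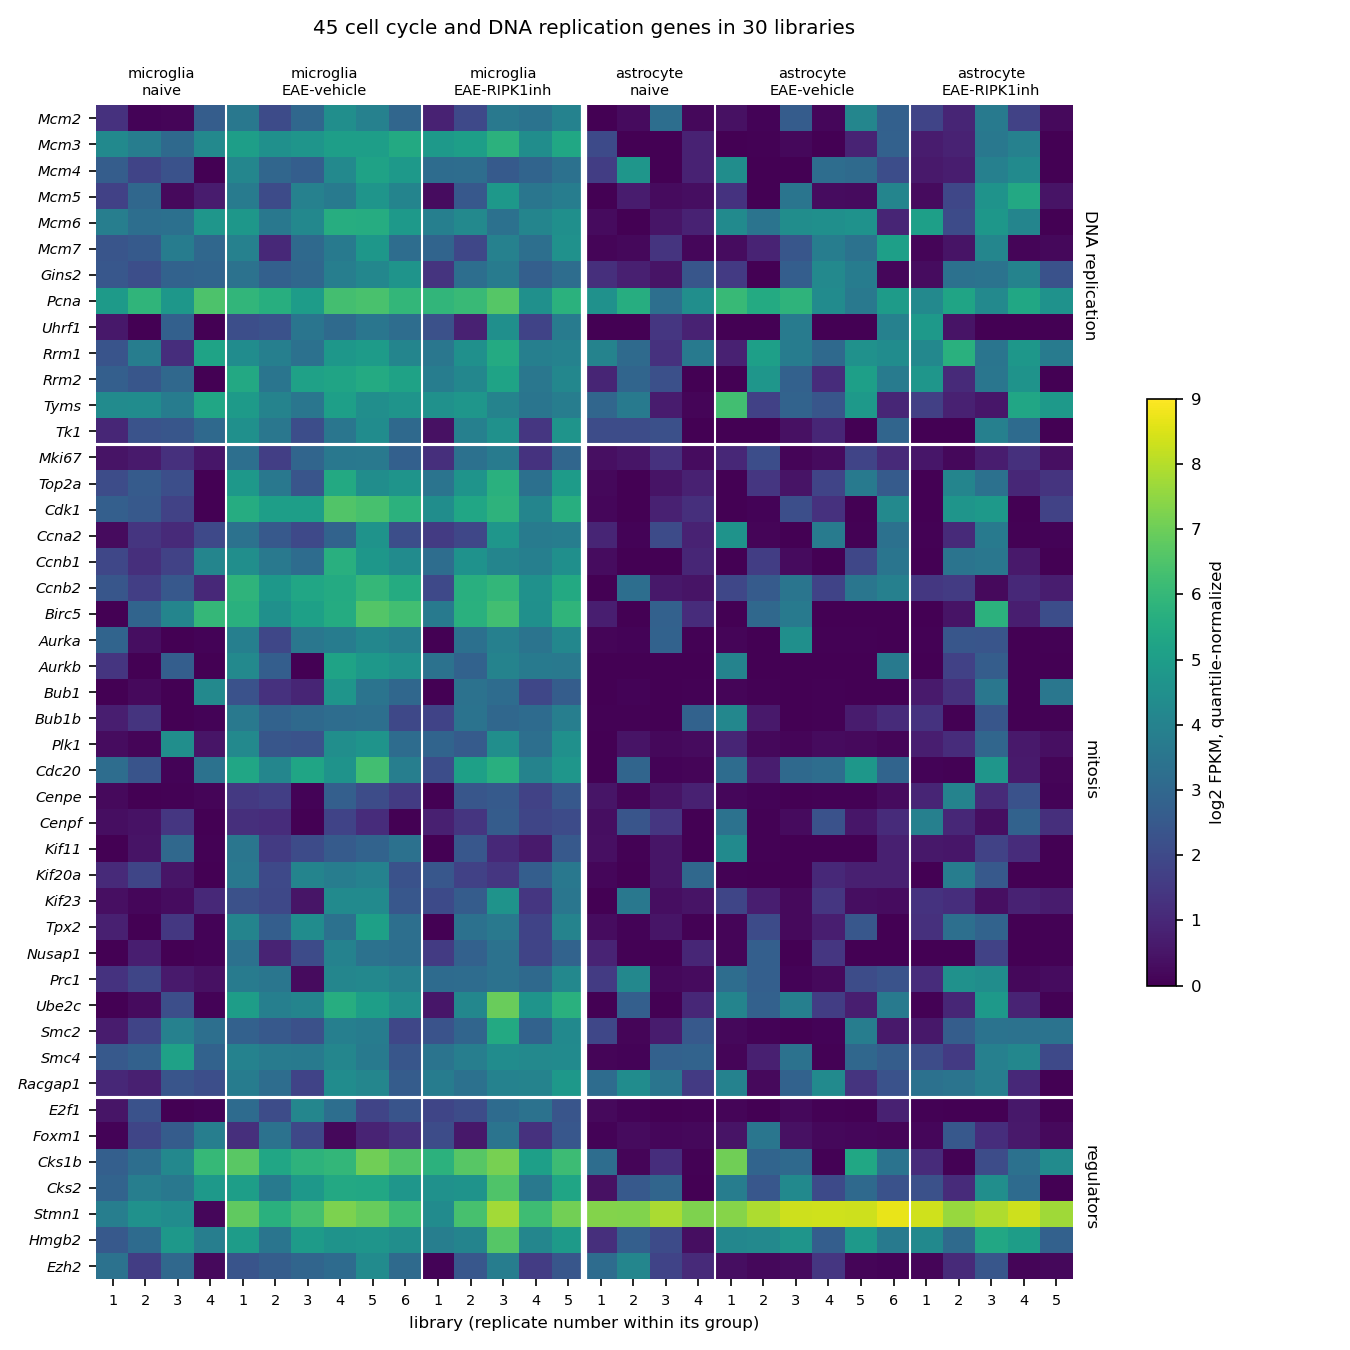
Level of each of the 45 genes (rows, grouped by role) in each of the 30 libraries (columns, grouped by cell type and treatment), as log2 FPKM on a colour scale from 0 to 9. Mitosis genes are dark in naive microglia and bright in most EAE microglia, while astrocytes are mostly dark apart from Stmn1 and Pcna.

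In naive microglia the replication genes stood at a higher mean level than the mitosis genes. Signal in all 4 naive libraries was found for 8 of 13 replication genes and 5 of 25 mitosis genes. The mean over the 13 replication genes was 2.73 ± 0.16 log2 FPKM (SD, n = 4), and over the 25 mitosis genes it was 1.30 ± 0.29. The mean level of 11 of the 25 mitosis genes was below 1, against 1 of 25 in EAE-vehicle and 0 of 25 in EAE-RIPK1inh microglia. The highest replication gene on this per-length scale was Pcna, the sliding clamp of DNA polymerase, at a mean of 5.52 in naive, 5.87 in EAE-vehicle and 5.79 in EAE-RIPK1inh microglia. In EAE-vehicle microglia the replication mean was 4.13 ± 0.59 (n = 6) and the mitosis mean 3.52 ± 0.71. In EAE-RIPK1inh microglia they were 3.70 ± 0.65 and 3.34 ± 0.88 (n = 5). The 7 regulators had means of 2.79 ± 0.40, 4.22 ± 0.25 and 4.11 ± 0.88 in the same order. Signal in every library of the group was found for 16 of 45 genes in naive microglia and for 39 of 45 in each EAE group. Taken singly, naive libraries 1 to 4 had signal for 39, 38, 35 and 21 of the 45 genes. For the 25 mitosis genes the numbers were 20, 20, 18 and 8. Naive library 4 had signal for 8710 genes in all, the fewest of the microglia libraries. Single EAE-vehicle libraries had signal for 40 to 45 of the 45 genes, and EAE-RIPK1inh libraries for 39 to 45.

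The list means were lower in astrocytes. Their replication mean was 1.46 ± 0.31 in naive, 2.41 ± 0.55 in EAE-vehicle and 2.45 ± 1.01 in EAE-RIPK1inh libraries, and their mitosis mean was 0.82 ± 0.23, 1.30 ± 0.30 and 1.46 ± 0.94. Signal in every library was found for 5, 10 and 8 of the 45 genes. Single libraries had signal for 17 to 43, 17 to 40 and 14 to 42 of them. Aurkb and Bub1 had signal in no naive astrocyte library. Single genes differed from this. Stmn1, which encodes the microtubule-destabilizing protein stathmin and is also used by neural cells outside division, had means of 7.43, 8.16 and 7.99 in the 3 astrocyte groups, against 3.23, 6.54 and 6.35 in microglia. In naive mice other genes, among them Racgap1 (3.14 against 1.58) and Ezh2 (2.54 against 2.08), also had higher means in astrocytes than in microglia. Pcna lay between 4.47 and 5.06 in astrocytes. These levels were not tested between cell types.

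**Figure D2:**
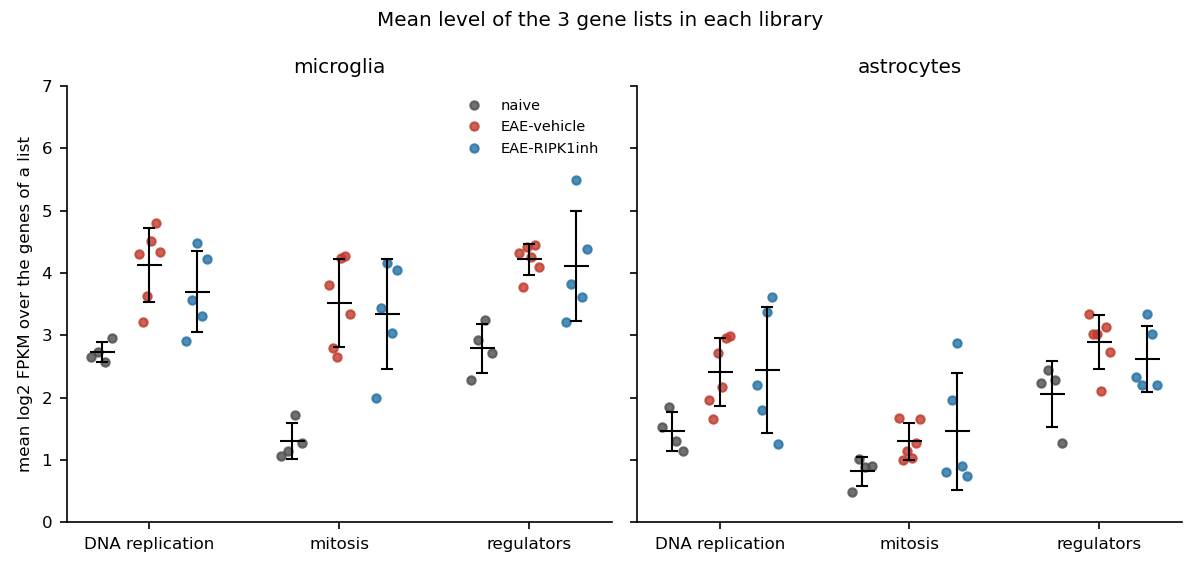
Mean log2 FPKM over the replication, mitosis and regulator genes in each library (points), with the mean ± SD of each group, in microglia and astrocytes. The mitosis means of the 4 naive microglia libraries, 1.07 to 1.72, lie below all 11 EAE microglia libraries, 1.99 to 4.27.

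Microglia from EAE-vehicle mice had higher levels of most cell division genes than naive microglia, and the mitosis genes moved most. Of the 45 genes, 32 were higher and 0 lower at the cutoff of the study, a fold change over 1.5 with an unadjusted p under 0.05 in limma. Among all 28958 genes tested, 6.13% were higher by that rule and 5.86% lower, and among the genes with a mean of at least 1 on the log2 scale, 16% were higher. After Benjamini-Hochberg adjustment over all genes, 13 of the 45 had a limma p under 0.05, where 2.37% of all genes were higher with that adjusted p. That count moved with the fit, to 26 with only genes of a mean of at least 1 tested, 9 with library quality weights and 3 with a replicate block. It was 7 or 8 without naive library 2 or EAE-vehicle library 1, 4, 5 or 6. The median log2 difference over the 45 genes was 2.13, and over all genes −0.02. By role, 21 of 25 mitosis genes were higher (median 2.25), 8 of 13 replication genes (median 1.12) and 3 of 7 regulators (median 1.07). All 6 EAE-vehicle libraries lay above all 4 naive libraries for 13 of the 45 genes, where 2.93% of all genes were separated in this direction. In bulk samples of this kind, fewer cells of a type and less RNA per cell cannot be told apart.

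Among the entry factors of mitosis, Cdk1, the kinase that drives cells into mitosis (chr10:69335146-69352938, GRCm38, minus strand), rose most clearly. Its levels were 2.72, 2.51, 1.76 and 0 in the naive libraries. In EAE-vehicle they ran from 5.04 to 6.56 with a median of 5.67. The groups did not overlap, and the difference was 3.99 on the log2 scale (SE 0.53), 15.8-fold, with a limma adjusted p of 0.000418 and a two-sided exact permutation p of 0.00476, the smallest that 4 against 6 libraries allow. Its partner Ccnb2, cyclin B2, was at 2.42, 1.66, 2.47 and 1.05 in naive and from 4.79 to 6.00 (median 5.52) in EAE-vehicle libraries. It rose by 3.60 (SE 0.63, adjusted p = 0.00345), again without overlap. The other mitotic cyclins rose less, Ccnb1 by 2.10 (SE 0.56, adjusted p = 0.0519) and Ccna2, cyclin A2, by 1.74 (SE 0.66, adjusted p = 0.209). Naive library 4, at 4.09 for Ccnb1, lay inside the EAE-vehicle range of 3.19 to 5.69.

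Genes of chromosome structure and of exit from mitosis rose too. Mki67, which encodes the Ki-67 protein of the mitotic chromosome surface and is the usual label of dividing cells (chr7:135689784-135716361), was at 0.47, 0.66, 1.25 and 0.54 in naive microglia. In EAE-vehicle it ran from 1.66 to 3.65 (median 3.11), above every naive library, a rise of 2.25 (SE 0.54, adjusted p = 0.0282). Top2a, the topoisomerase that untangles sister chromatids (chr11:98992943-99024189), was at 2.09, 2.59, 2.15 and 0 and at 2.37 to 5.47 (median 4.54). It rose by 2.51 (SE 0.66, adjusted p = 0.0488), with EAE-vehicle library 3, at 2.37, below the highest naive library. Ube2c, the ubiquitin-conjugating enzyme of the anaphase-promoting complex (chr2:164769898-164778822), had the largest difference of the 45, 4.04 (SE 0.93, adjusted p = 0.0225). Its naive levels were 0, 0.28, 2.17 and 0.09 and its EAE-vehicle levels 3.90 to 5.62 (median 4.72), which did not overlap. Cdc20, the activator of that complex, rose by 2.66 (SE 0.75, adjusted p = 0.0691) without overlap.

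The spindle and checkpoint genes behaved alike in direction. Tpx2, a spindle assembly factor that activates Aurora A, rose by 3.24 (SE 0.71, adjusted p = 0.0175), Bub1b, the checkpoint protein BubR1, by 2.43 (SE 0.43, adjusted p = 0.00414), and Nusap1, a spindle microtubule binder, by 2.61 (SE 0.55, adjusted p = 0.0136). Aurka and Aurkb, the Aurora kinases, rose by 2.69 (SE 0.80, adjusted p = 0.084) and 2.55 (SE 0.87, adjusted p = 0.153). Plk1, a kinase of mitotic entry, rose by 2.20 (SE 0.81, adjusted p = 0.198), with 1 naive library at 4.44 inside the EAE-vehicle range. Birc5, survivin, a subunit of the Aurora B complex, rose by 2.38 (SE 0.89, adjusted p = 0.207) from naive levels as far apart as 0, 2.89, 4.08 and 6.01. For these last genes the naive and EAE-vehicle ranges overlapped.

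Motors and cytokinesis genes rose as well. Kif20a, a kinesin of the central spindle, rose by 2.42 (SE 0.55, adjusted p = 0.0203), Kif23, the kinesin of the centralspindlin complex, by 2.16 (SE 0.75, adjusted p = 0.159), and Racgap1, its partner in that complex, by 1.74 (SE 0.50, adjusted p = 0.0766). Prc1, which bundles midzone microtubules, rose by 2.23 (SE 0.65), the spindle motor Kif11 by 1.77 (SE 0.68) and the kinetochore motor Cenpe by 1.5 (SE 0.55). The 4 mitosis genes that did not pass were Bub1 (difference 1.47), the condensin subunits Smc2 (0.42) and Smc4 (0.28), and the kinetochore protein Cenpf (0.34). Both condensin genes already had means of 2.44 and 3.32 in naive microglia, and Smc4 was the highest mitosis gene there.

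The replication genes were less uniform. Rrm2, the regulated subunit of ribonucleotide reductase, which makes deoxynucleotides (chr12:24708241-24714146), was at 2.74, 2.42, 3.03 and 0 in naive and from 3.50 to 5.50 (median 5.22) in EAE-vehicle microglia. It rose by 2.96 (SE 0.57, adjusted p = 0.00679), 7.76-fold, without overlap. The constitutive subunit Rrm1 was at 2.33, 3.82, 1.19 and 5.21 in naive and from 3.37 to 4.93 in EAE-vehicle microglia, and its difference of 1.10 (SE 0.64) did not pass. Tyms, thymidylate synthase, differed by −0.02 (SE 0.37), and Tk1, thymidine kinase, by 1.34, neither past the cutoff. Pcna differed by 0.35 (SE 0.43), with naive levels of 4.78 to 6.47 and EAE-vehicle levels of 4.97 to 6.42 that overlapped almost completely.

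The 6 subunits of the MCM helicase, which unwinds DNA as one ring, differed in size of change. Mcm3 (chr1:20802968-20820312) was at 4.26, 3.83, 3.06 and 4.24 in naive and from 4.52 to 5.46 (median 5.04) in EAE-vehicle libraries. It rose by 1.12 (SE 0.30, adjusted p = 0.0574, exact permutation p = 0.00476) without overlap. Mcm4, at 2.64, 1.84, 2.27 and 0 in naive libraries and from 2.68 to 5.19 (median 4.17) in EAE-vehicle, rose by 2.32 (SE 0.56, adjusted p = 0.0289). Mcm2 rose by 2.29 (SE 0.69, adjusted p = 0.0896), Mcm5 by 2.28 (SE 0.79, adjusted p = 0.159) and Mcm6 by 0.99 (SE 0.42, adjusted p = 0.29). Mcm7 differed by 0.35 (SE 0.64) and did not pass. Their naive means were 3.85 for Mcm3, 3.78 for Mcm6, 2.92 for Mcm7, 1.69 for Mcm4, 1.42 for Mcm5 and 1.04 for Mcm2. Uhrf1, which keeps DNA methylation at the replication fork, rose by 2.13 (SE 0.70), and Gins2, of the GINS complex of the same helicase, by 1.06 (SE 0.46).

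Of the regulators, Stmn1 (chr4:134468320-134473843) was at 3.86, 4.54, 4.38 and 0.15 in naive and from 5.72 to 7.24 (median 6.57) in EAE-vehicle microglia, without overlap. It rose by 3.31 (SE 0.79, adjusted p = 0.0291). E2f1, a transcription factor of S phase entry, was at 0.51, 2.25, 0.03 and 0.09 and at 1.86 to 4.13 (median 2.73), and rose by 2.08 (SE 0.54, adjusted p = 0.0459). Cks1b, a Cdk-binding protein, rose by 2.17 (SE 0.58, adjusted p = 0.0519). Its relative Cks2 differed by 1.07, the chromatin protein Hmgb2 by 0.94 (SE 0.55), the histone H3 lysine methyltransferase Ezh2 by 1.01 (SE 0.71) and the mitotic transcription factor Foxm1 by −0.62 (SE 0.76), and none of these passed. Foxm1 was at 0.09, 1.89, 2.63 and 3.86 in naive microglia and between 0.19 and 3.41 in EAE-vehicle.

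**Figure D3:**
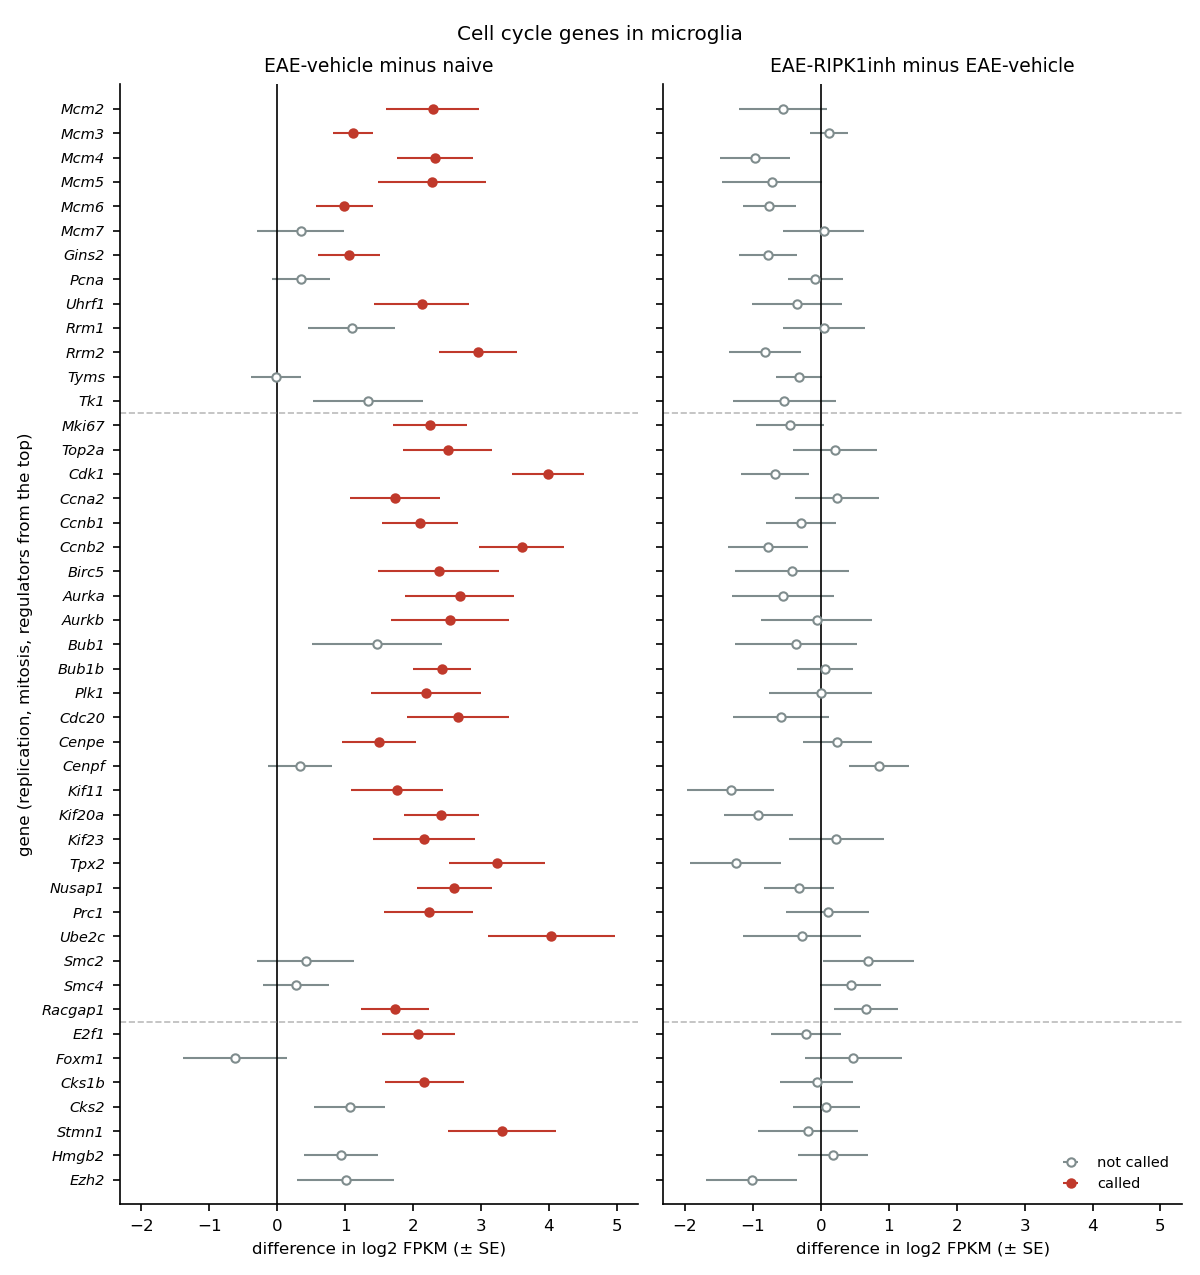
Difference in mean log2 FPKM ± SE for each of the 45 genes in microglia, EAE-vehicle minus naive (left) and EAE-RIPK1inh minus EAE-vehicle (right), with red marking a fold over 1.5 and p under 0.05. On the left 32 genes are red and all lie to the right of 0, and on the right no gene is red.

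In fits that left out each of the 15 microglia libraries in turn, 26 of the 32 genes stayed called in every fit, and the count ran from 26 to 34. The exceptions were Plk1, Birc5, Ccna2, Kif11, Mcm6 and Gins2. Without naive library 4, the one with the fewest genes with signal, 33 genes were higher.

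Markers of recruited myeloid cells were measured beside the program. The mean over 9 monocyte and neutrophil markers was 2.01, 2.31, 5.84 and 3.92 in naive microglia and 6.13, 3.69, 5.62, 2.47, 3.65 and 5.93 in EAE-vehicle libraries 1 to 6. Of these markers, 2 of 9 were higher in EAE-vehicle (Ly6c2 and Plac8). Ccr2, the chemokine receptor of inflammatory monocytes, had signal in 0 of 4 naive, 4 of 6 EAE-vehicle and 4 of 5 EAE-RIPK1inh microglia libraries. EAE-vehicle library 4, with the lowest marker mean of its group, 2.47, had a mitosis mean of 4.24, and library 5, at 3.65, had 4.27. Naive library 3, with a marker mean of 5.84, had a mitosis mean of 1.72, each the highest of the naive group. In EAE-RIPK1inh microglia, library 3 was highest in both (6.83 and 4.16) and library 1 lowest in both (2.03 and 1.99). Without the library of each group with the most monocyte, neutrophil and T cell markers, 31 of the 45 genes were higher, 6 of them with an adjusted p under 0.05. T cell markers stayed between 0.24 and 0.95 in EAE-vehicle microglia. Of the 10 microglia markers, 10 were called lower in EAE-vehicle than in naive microglia, where 5.86% of all genes were. The part of recruited cells in the differences was not tested.

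**Figure D4:**
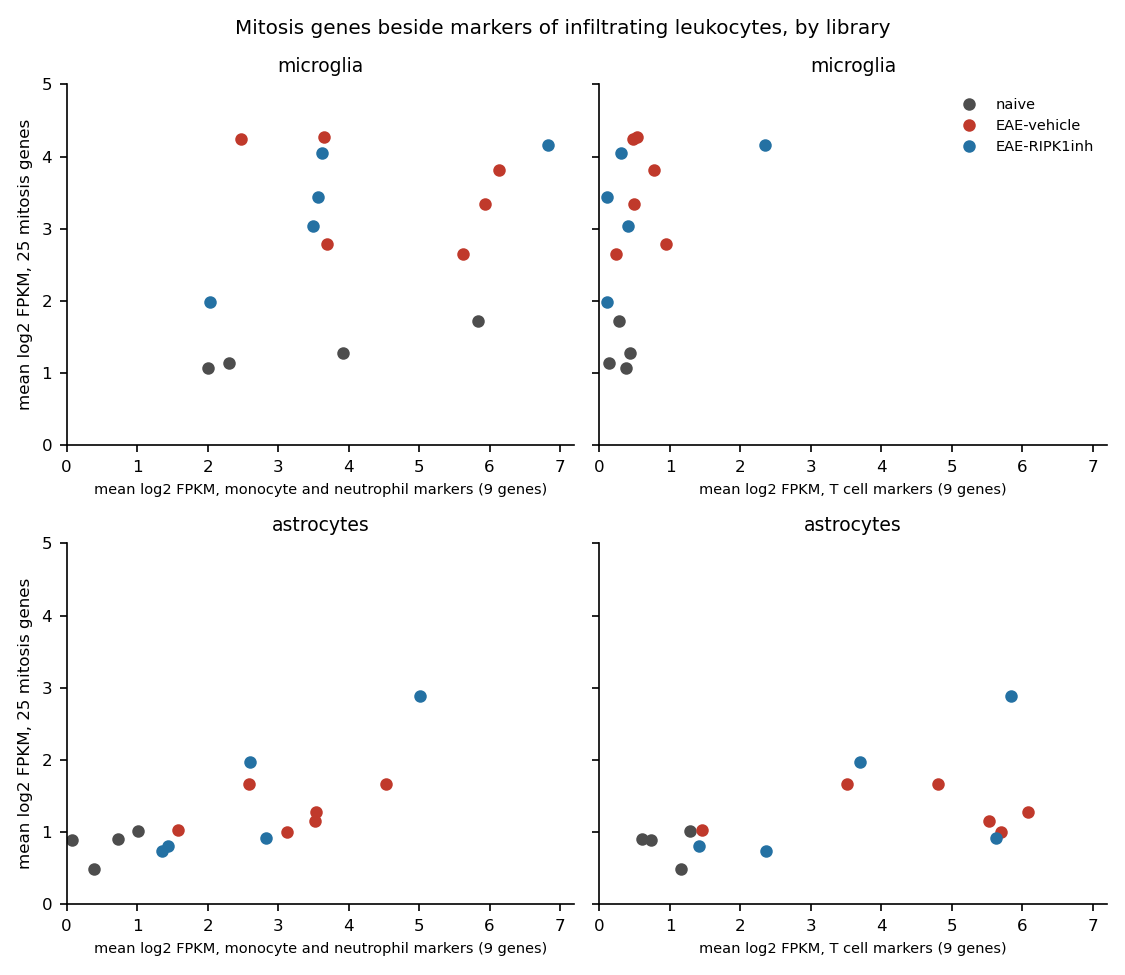
Mean log2 FPKM of the 25 mitosis genes in each library against the mean of 9 monocyte and neutrophil markers and of 9 T cell markers, in microglia and astrocytes, with a colour for each group. Naive microglia library 3 has a monocyte and neutrophil marker mean of 5.84 and a mitosis mean of 1.72, and EAE-vehicle library 4 has 2.47 and 4.24. EAE-RIPK1inh microglia library 3 has 6.83 and 4.16, and library 1 has 2.03 and 1.99.

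RIPK1 inhibition was compared with vehicle in EAE to ask whether the kinase bears on this program once disease has begun. In microglia 0 of the 45 genes passed the cutoff in either direction, 0 had an unadjusted limma p under 0.05 and 0 an adjusted p under 0.05. Of all genes, 1.06% were called higher and 0.701% lower, and 0.00345% were higher with an adjusted p under 0.05. The median difference was −0.28, with 28 genes below 0 and 17 above, against −0.02 for all genes. The replication genes had a median of −0.54, with 10 of 13 below 0, the mitosis genes −0.28 and the regulators −0.06. The standard errors of the single genes were 0.28 to 0.90 with a median of 0.60. These medians describe the lists and were not tested.

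The values of the main genes show that spread. Cdk1 was at 4.40, 5.32, 5.83, 4.08 and 5.65 in EAE-RIPK1inh microglia, against 5.04 to 6.56 in EAE-vehicle, a difference of −0.67 (SE 0.50). Mki67 was at 1.22, 3.35, 3.75, 1.33 and 2.97, a difference of −0.46 (SE 0.50), and Top2a at 3.48, 4.65, 5.72, 3.33 and 4.95, a difference of 0.21 (SE 0.62). EAE-RIPK1inh libraries 1 and 4 were low for each of these genes and library 3 was high. Ube2c ranged from 0.54 in library 1 to 6.93 in library 3 and differed by −0.28 (SE 0.87). Library 3 also had the highest monocyte and neutrophil marker mean of the microglia libraries, 6.83, and T cell markers at 2.35 where the other 4 lay between 0.11 and 0.41. Their part in its levels was not tested.

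The lowest p belonged to the motor Kif11, which was at 0, 2.44, 1.05, 0.65 and 2.53 in EAE-RIPK1inh and from 1.55 to 3.55 in EAE-vehicle microglia. It differed by −1.33 (SE 0.64, limma p = 0.0557, adjusted p = 0.93, exact permutation p = 0.0498). Cenpf differed by 0.86 (SE 0.44), Mcm6 by −0.76 (SE 0.39), Tpx2 by −1.25 (SE 0.67) and Mcm4 by −0.97 (SE 0.52). Rrm2 differed by −0.82 (SE 0.53), Ezh2 by −1.02 (SE 0.67), Birc5 by −0.42 (SE 0.84), Ccnb1 by −0.29 (SE 0.52), Stmn1 by −0.19 (SE 0.74) and Hmgb2 by 0.18 (SE 0.51). Of the other replication genes, Mcm5 differed by −0.72, Mcm2 by −0.56, Tyms by −0.32, Pcna by −0.08, Rrm1 by 0.05, Mcm7 by 0.04 and Mcm3 by 0.12, and E2f1 differed by −0.22. The count depended on 1 library: without EAE-vehicle library 2 it was 6, and the other single-library fits gave 0 to 3. With library quality weights it was 10, of which 8 were lower. The shares of all genes called above are those of the main fit. Shares for these other fits are not given, so their counts cannot be set against all genes.

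The EAE-RIPK1inh microglia were also set against naive microglia, in a comparison that shares its libraries with the other 2 and is no separate evidence. It gave 28 genes higher and 0 lower, where 5.35% of all genes were higher, with 20 of 25 mitosis, 5 of 13 replication and 3 of 7 regulator genes. The 5 with an adjusted limma p under 0.05 (1.81% of all genes were higher by that measure) were Cdk1 (3.31, SE 0.55), Bub1b (2.50, SE 0.45), Racgap1 (2.41, SE 0.52), Ccnb2 (2.83, SE 0.65) and Nusap1 (2.29, SE 0.57). That count was 15 with only genes of a mean of at least 1 tested, 2 with a replicate block, and 2 to 11 without 1 library (2 without naive library 1 or EAE-RIPK1inh library 5, 3 without naive library 2 or EAE-RIPK1inh library 2, 3 or 4, and 11 without EAE-RIPK1inh library 1). Mki67 was higher by 1.80 (SE 0.56), Top2a by 2.72 (SE 0.69), Rrm2 by 2.14 (SE 0.59), Stmn1 by 3.12 (SE 0.82) and Mcm3 by 1.24 (SE 0.32). Mcm6 differed from naive by 0.23, Gins2 by 0.28 and Kif11 by 0.44, where the EAE-vehicle differences had been 0.99, 1.06 and 1.77. The differences between those pairs are the inhibitor comparison above, in which none of the 3 genes passed.

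Astrocytes from EAE-vehicle mice showed few changes in the program. Of the 45 genes, 6 were higher and 1 lower than in naive astrocytes, where 2.69% of all 30718 genes tested were higher and 4.01% lower, and no adjusted limma p was under 0.05 (lowest 0.141), where 0.342% of all genes were higher and 0.238% lower with such a p. By role, 2 of 13 replication genes (Mcm6 and Mcm7), 2 of 25 mitosis genes (Cdc20 and Ccnb2) and 2 regulators (Hmgb2 and Stmn1) were higher, and Ezh2 was lower. The median difference was 0.63, with 0.77 for replication, 0.23 for mitosis and 0.72 for regulator genes, against 0.03 for all genes. Fits that left out each astrocyte library in turn kept Hmgb2, Mcm6, Ezh2 and Stmn1 in all 15.

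Mcm6 (chr1:128331590-128359664) was at 0.27, 0, 0.52 and 0.87 in naive astrocytes and at 4.30, 3.48, 4.40, 4.48, 4.59 and 0.94 in EAE-vehicle libraries 1 to 6. The groups did not overlap, though library 6 lay close to the naive levels, and 1.02% of all genes were separated in this direction. The difference was 3.28 (SE 0.96, limma adjusted p = 0.217, exact permutation p = 0.00952). The other MCM subunits except Mcm7 did not pass: Mcm5 differed by 1.26 (SE 1.10), Mcm2 by 0.77 (SE 0.96), Mcm4 by 0.35 (SE 1.18) and Mcm3 by −0.06 (SE 0.87). Mcm7 was at 0.13, 0.21, 1.36 and 0.15 and then at 0.30 to 5.08, and rose by 2.19 (SE 0.98, adjusted p = 0.672).

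Hmgb2 (chr8:57511907-57515999), a DNA-bending chromatin protein of dividing cells, was at 1.21, 2.73, 2.04 and 0.34 in naive and from 2.70 to 4.83 (median 4.22) in EAE-vehicle astrocytes. Only EAE-vehicle library 4 lay within the naive range, and the rise was 2.48 (SE 0.65, adjusted p = 0.141). Ezh2 (chr6:47530139-47595341) was at 3.17, 4.12, 1.80 and 1.07 in naive and from 0.09 to 1.42 (median 0.22) in EAE-vehicle astrocytes, and fell by 2.13 on the log2 scale (SE 0.66, adjusted p = 0.273). Again EAE-vehicle library 4, at 1.42, was the only one to reach into the naive range. With library quality weights its difference was −1.24 and no longer passed. Stmn1 was at 7.32, 7.30, 7.84 and 7.27 and at 7.36 to 8.71 (median 8.31), a rise of 0.72 (SE 0.27, adjusted p = 0.478).

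Ccnb2 rose by 1.80 (SE 0.68, adjusted p = 0.478) and Cdc20 by 2.19 (SE 1.00, adjusted p = 0.69) in EAE-vehicle astrocytes, and for each gene naive library 2, at 3.26 and 2.95, lay inside the EAE-vehicle range. The usual labels of dividing cells did not pass. Mki67 ran from 0.29 to 1.27 in naive and from 0.12 to 2.11 in EAE-vehicle astrocytes (difference 0.45, SE 0.48), Top2a from 0 to 0.83 and from 0 to 3.68 (1.30, SE 0.85), and Cdk1 from 0 to 1.20 and from 0 to 4.23 (0.75, SE 1.10). Differences for Rrm2 (1.39, SE 1.16), Tyms (1.32, SE 1.23), Ccnb1 (0.90, SE 0.89), Rrm1 (0.60, SE 0.80), Pcna (0.59, SE 0.56), E2f1 (0.11, SE 0.15) and Birc5 (−0.04, SE 1.14) did not pass either. Aurkb is listed at 0 in every naive astrocyte library and had signal in 3 of 6 EAE-vehicle libraries (mean 1.30). It was fitted and counted with the other genes and did not pass, and no fold is quoted for it here.

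Markers of immune cells, of oligodendrocytes and of neurons were measured beside these differences in astrocyte libraries. The mean of 9 T cell markers was 0.61 to 1.29 in naive and 3.51, 5.69, 5.52, 1.45, 6.08 and 4.80 in EAE-vehicle libraries 1 to 6, and 6 of 9 were called higher. The mean of the monocyte and neutrophil markers was 0.07 to 1.01 in naive and 1.58 to 4.53 in EAE-vehicle, with 5 of 8 tested called higher. EAE-vehicle library 4, with the fewest T cell markers of its group, had Mcm6 at 4.48, Hmgb2 at 2.70 and Ezh2 at 1.42. The mean of 7 oligodendrocyte markers was 6.19 to 7.39 in naive and 6.38 to 9.91 in EAE-vehicle, with 4 of 7 called higher. The mean of 6 neuron markers was 4.30 to 5.41 in naive and 5.26 to 6.07 in EAE-vehicle, with 1 of 6 called higher. Without the library of each group with the most immune markers, the counts were again 6 higher and 1 lower, but Stmn1 (0.65) and Mcm7 (1.95) no longer passed and other genes did. The part of these cells in the differences was not tested.

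**Figure D5:**
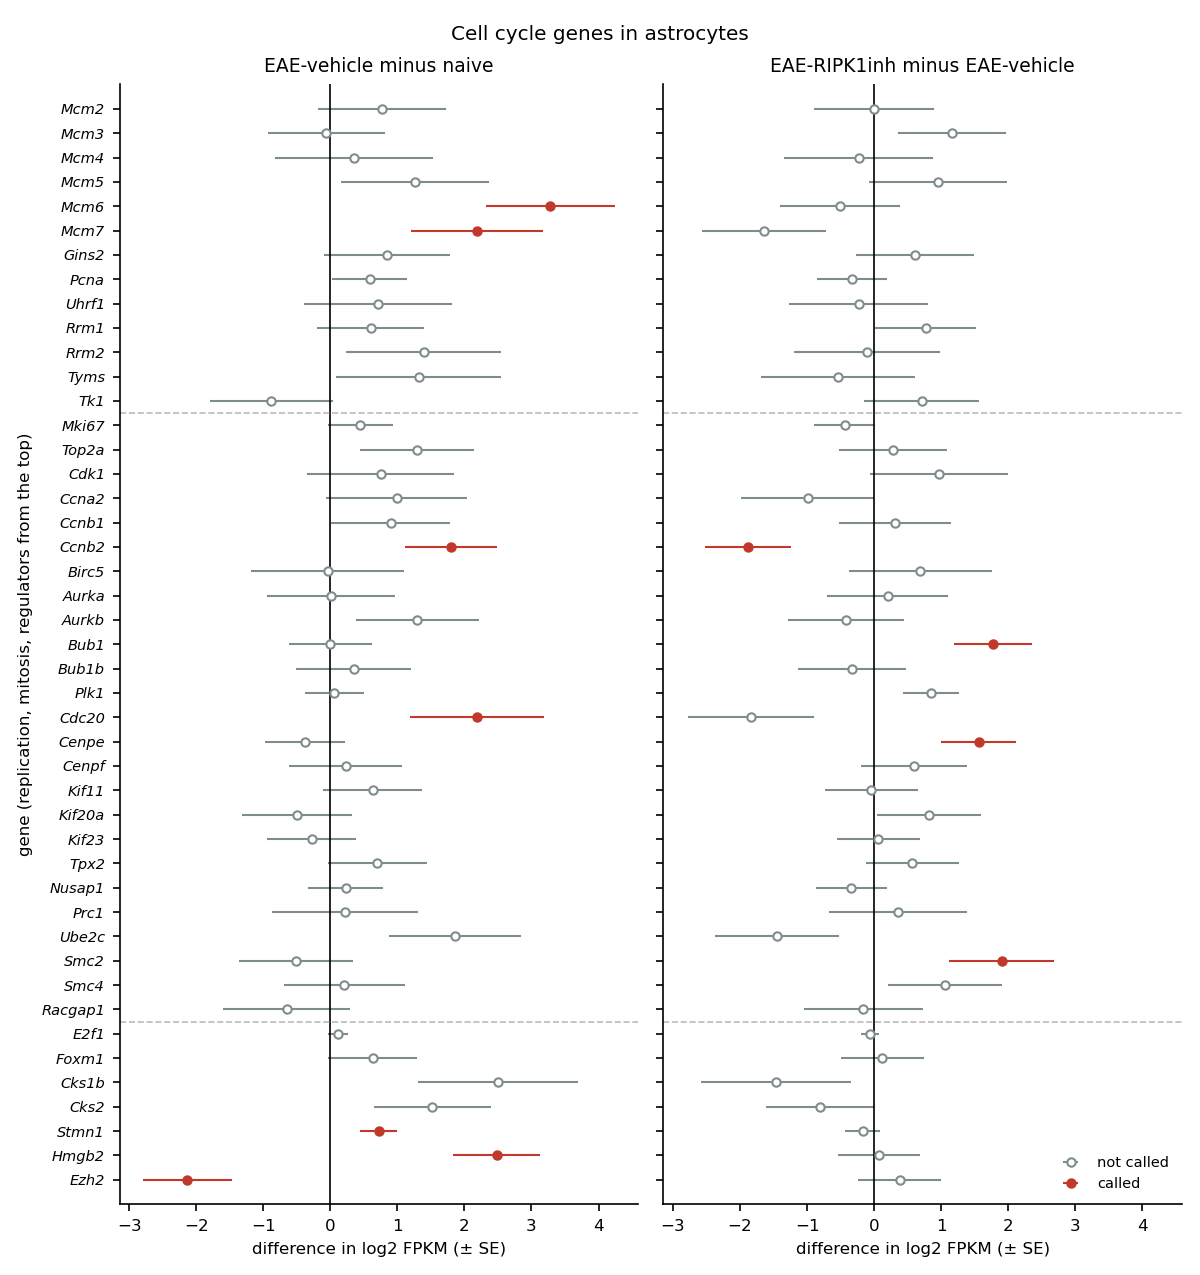
Difference in mean log2 FPKM ± SE for each of the 45 genes in astrocytes, EAE-vehicle minus naive (left) and EAE-RIPK1inh minus EAE-vehicle (right), with red marking a fold over 1.5 and p under 0.05. On the left 6 genes are red above 0 and Ezh2 below 0, and on the right 3 are red above 0 and Ccnb2 below 0.

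With RIPK1 inhibition, 3 of the 45 genes were higher and 1 lower than in EAE-vehicle astrocytes, where 1.84% and 1.18% of all genes were. All 4 were mitosis genes, and no adjusted limma p was under 0.05 (0.84 for each). Ccnb2 was at 1.46, 1.57, 0.22, 1.04 and 0.71 in EAE-RIPK1inh and from 1.82 to 3.93 (median 3.04) in EAE-vehicle astrocytes. It fell by 1.88 on the log2 scale (SE 0.64, limma p = 0.00976, exact permutation p = 0.00649) without overlap, and 0.124% of all genes were separated in this direction. Bub1, a checkpoint kinase, had values of 0 to 0.11 in EAE-vehicle and of 0.64, 1.24, 3.56, 0.03 and 3.58 with the inhibitor, a rise of 1.77 (SE 0.58). Cenpe ran from 0.01 to 0.26 and then was at 0.94, 4.01, 1.06, 2.25 and 0.10, a rise of 1.56 (SE 0.56). Bub1 had signal in 1 of 6 EAE-vehicle and 4 of 5 EAE-RIPK1inh libraries, and Cenpe in 2 of 6 and 4 of 5. Both rises were thus measured largely from values without signal. Smc2 rose by 1.90 (SE 0.79) and stayed called in 8 of the 15 single-library fits. The cyclin and these 3 genes moved in opposite directions, and the median over the 25 mitosis genes was 0.28.

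The genes that had changed with EAE in astrocytes did not pass with the inhibitor, other than Ccnb2. Mcm6 was at 5.08, 2.05, 4.76, 4.08 and 0 in EAE-RIPK1inh astrocytes (difference −0.51, SE 0.90), and Hmgb2 at 4.28, 3.12, 5.41, 5.01 and 2.80 (0.07, SE 0.61). Ezh2 was at 0.14, 1.07, 2.40, 0.13 and 0.20 (0.38, SE 0.62), Stmn1 differed by −0.17 (SE 0.26), Mcm7 by −1.64 (SE 0.92) and Cdc20 by −1.84 (SE 0.94). Mki67 differed by −0.44 (SE 0.45), Cdk1 by 0.97 (SE 1.03) and Pcna by −0.33 (SE 0.52). Against naive astrocytes, with which it shares libraries, the EAE-RIPK1inh group had 3 genes higher, Hmgb2 (2.54, SE 0.68), Mcm6 (2.77, SE 1.00) and Bub1 (1.77, SE 0.64), and Ezh2 lower (−1.75, SE 0.69). In that comparison 1.98% of all genes were higher and 2.64% lower, and Bub1 had no signal in any naive library.

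Whether EAE moved the program differently in the 2 cell types was tested directly as an interaction over all 30 libraries. The paper describes both cell types as sorted from the same EAE animals, and it counts as many mice per group as libraries of each cell type. The EAE libraries of the 2 cell types therefore share mice, and the naive ones may too. The labels do not tie single libraries together. The fit takes all libraries as independent, so its SEs and p-values leave the shared mice out of account. The EAE effect was larger in microglia for 14 genes and smaller for 1, where 4.97% and 3.71% of all genes were called, and no adjusted limma p was under 0.05 (lowest 0.135), where 0.604% and 0.378% of all genes had one. The 14 held 11 of 25 mitosis genes, 0 of 13 replication genes and 3 of 7 regulators. The median of the difference between effects was 1.88 for mitosis genes, of which all 25 were above 0, and 1.02 for replication genes, against −0.05 for all genes. Among them were Cdk1 (3.23, SE 1.24), Kif20a (2.91, SE 0.99), Tpx2 (2.54, SE 1.03), Nusap1 (2.38, SE 0.82) and Mki67 (1.80, SE 0.71), and the regulators Ezh2 (3.14, SE 0.96), Stmn1 (2.58, SE 0.86) and E2f1 (1.97, SE 0.63). Mcm6 went the other way (−2.30, SE 1.06). Centring each library on its median shifted the effect of all genes to −0.32 and left 8 genes above and 1 below. For the inhibitor effect, 0 genes were called, with 0 at an unadjusted limma p under 0.05, where 1.49% and 1.66% of all genes were called, and the median was −0.25.

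The rest of the pathway was read from 4 further lists of genes. In EAE-vehicle against naive microglia, 32 of 55 other mitosis genes were higher and 0 lower (median difference 1.55), as were 15 of 46 other replication genes with 1 lower (median 0.72), beside 6.13% of all genes higher and 5.86% lower, and 16% higher among genes with a mean of at least 1. Cdca3, an adaptor of mitotic ubiquitination, was at 0.65, 0.25, 1.12 and 0.28 in naive and from 3.20 to 4.92 in EAE-vehicle microglia, without overlap. It rose by 3.40 (SE 0.45, adjusted p = 0.000385), and Mad2l1, a spindle checkpoint protein, rose by 3.12 (SE 0.54, adjusted p = 0.00323). On the replication side Gmnn, geminin, which blocks a repeat of origin licensing, rose by 3.06 (SE 0.60, adjusted p = 0.00793), and Ung, a uracil glycosylase, by 2.35 (SE 0.50, adjusted p = 0.0141).

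The other lists held further cyclins, Cdks and E2F-related genes, and the Cdk inhibitors. Of 20 cyclins, Cdks and E2F-related genes, 2 were higher and 1 lower (median 0.38), and of 10 Cdk inhibitors and pocket proteins 2 were higher and 1 lower (median 0.59). Of all genes 6.13% were higher and 5.86% lower, and 16% were higher among genes with a mean of at least 1. Cdk6, a G1 kinase, was at 4.37, 3.82, 5.06 and 4.16 in naive and from 1.54 to 3.61 in EAE-vehicle microglia. It fell by 1.58 on the log2 scale (SE 0.40, adjusted p = 0.0398) without overlap. The Cdk inhibitor Cdkn1c fell by 2.21 (SE 0.61, adjusted p = 0.0597). The pocket proteins Rbl1 and Rb1 rose by 1.84 (SE 0.53, adjusted p = 0.0743) and 1.13 (SE 0.52, adjusted p = 0.361), and the S phase cyclin Ccne2 by 1.76 (SE 0.57, adjusted p = 0.122). The D cyclins Ccnd1 (−0.38), Ccnd2 (1.03) and Ccnd3 (0.28), Cdk4 (0.38) and the inhibitors Cdkn1a (1.05), Cdkn1b (−0.30) and Cdkn2c (0.96) did not pass.

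With RIPK1 inhibition in microglia, the same lists had 0 higher and 2 lower of 46 replication genes, 2 higher and 1 lower of 55 mitosis genes, 1 higher of 20 in the cyclin list and 0 of 10 inhibitors. Among all genes 1.06% were higher and 0.701% lower. The named genes were the replication factor Mcm10 (−1.5, SE 0.67), the kinetochore gene Knl1 (1.55, SE 0.51), the condensin subunit Ncaph (−1.47, SE 0.53) and Ccnd1, cyclin D1 (1.03, SE 0.43), each with a limma adjusted p of 0.93. Ccnd2 (−0.63), Ccnd3 (0.36), Cdk4 (0.39), Cdk6 (0.45), Cdkn1a (0.64), Cdkn1b (−0.27), Cdkn2c (0.54) and Rb1 (−0.35) did not pass.

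In EAE-vehicle against naive astrocytes, 2 of 46 replication genes were higher and 1 lower, 3 of 55 mitosis genes higher and 2 lower, 4 of 20 in the cyclin list higher and 0 lower, and 0 of 10 inhibitors passed. Among all genes 2.69% were higher and 4.01% lower. The clamp loader subunit Rfc2 rose by 3.47 (SE 0.98, adjusted p = 0.192) and the primase subunit Prim2 fell by 2.21 on the log2 scale (SE 0.96, adjusted p = 0.64). The kinetochore gene Spc25 rose by 2.28 (SE 0.92) and the centromeric histone Cenpa by 2.21 (SE 1.02). Here the G1 genes Cdk6 (1.90, SE 0.81), Ccnd1 (1.69, SE 0.73) and Cdk4 (1.35, SE 0.63) rose, with adjusted p of 0.604, 0.629 and 0.72. Cdk6 had fallen in microglia, and its EAE effect was lower there (interaction −3.48 on the log2 scale, SE 0.90, limma adjusted p = 0.0547). Ccnd2 (−0.56), Ccnd3 (0.78), Cdkn1a (0.80), Cdkn1b (−0.76), Cdkn2c (0.70) and Rb1 (−1.19) did not pass.

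In astrocytes with the inhibitor, Gmnn was at 4.73, 4.51, 4.30, 5.95 and 4.24, against 0, 0.04, 3.12, 3.56, 0 and 4.22 in EAE-vehicle. Gmnn rose by 2.92 (SE 1.03, limma adjusted p = 0.84). The groups were separated only narrowly, the lowest inhibitor library at 4.24 and the highest EAE-vehicle library at 4.22. The share of all genes separated in this direction is not given. The primase subunit Prim1 fell by 2.16 (SE 0.73), and the cytokinesis gene Ect2 and the mitotic kinase Melk rose by 1.71 (SE 0.75) and 1.13 (SE 0.51). In all, 1 of 46 replication genes was higher and 2 lower, 2 of 55 mitosis genes were higher, and 0 of the other 30 passed, where 1.84% of all genes were higher and 1.18% lower. Ccnd1 (−0.64), Ccnd2 (0.05), Ccnd3 (−1.27), Cdk4 (−0.32), Cdk6 (−0.78), Cdkn1a (0.78), Cdkn1b (0.08), Cdkn2c (−1.64) and Rb1 (−0.44) were among these.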

How the data were processed

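Microglia and astrocytes were sorted by flow cytometry, and their polyadenylated RNA was reverse-transcribed, amplified by PCR and cut with Tn5 transposase before sequencing. OmicSoft Array Studio was used by the authors for alignment and quantification, and log2 FPKM values were deposited. Every deposited library holds the same sorted values, as quantile normalization gives. The aligner, annotation release and offset before the logarithm were not given in the sources used here. Genes without signal were recognised by small values ordered as in the table. All 45 gene positions were identical to GENCODE M21 (GRCm38). Promoters came from RefSeq.

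Groups came from the labels. They were compared with limma 3.58.1 in R 4.3.3 (lmFit, then eBayes with a variance trend) on the deposited values, in a fit of the 3 groups for each cell type and an interaction fit over all 30 libraries. Genes constant in all libraries of a fit were left out, which left 28958 in microglia, 30718 in astrocytes and 30952 in the interaction. A gene was called at a fold over 1.5 and an unadjusted p under 0.05. The paired test named in the methods was not used, since the labels do not say which libraries share a mouse. Two-sided exact permutation tests of the difference in means used 210, 462 and 126 arrangements of the libraries, with smallest p of 0.00476 (EAE-vehicle against naive), 0.00216 (EAE-RIPK1inh against EAE-vehicle) and 0.00794 (EAE-RIPK1inh against naive). The p-values measure the spread between libraries. The fits were tested on simulated data. Python 3.11.15 with scipy 1.17.1 and matplotlib 3.10.9 was used for the rest.

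Named genes were a fixed set of 19 members, every other member called in a cell type, the D cyclins with Cdk4, Cdk6, Cdkn1a, Cdkn1b, Cdkn2c and Rb1, and the 2 called genes of largest change per further list, of which 1 is not reported here. The members and lists were chosen with earlier results of these data known. Alternatives were a filter at a mean log2 of 1, an added pseudocount of 1, values without signal set to 0, median centring, library quality weights, the number of genes with signal as a covariate, no variance trend, a replicate block, and each library left out.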

Additional observations from a re-analysis of the deposited data

Results flagged for a closer look

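Among 77 groups checked, 4 held a lone library farther from the rest than chance usually leaves it, and chance would mark about 1 in 20. Stmn1 was highest in naive astrocyte library 3, at 7.84. In EAE-vehicle microglia library 2, Hmgb2 was lowest at 3.51 and Rrm2 was lowest at 3.50. Mcm6 was lowest in EAE-vehicle astrocyte library 6, at 0.94.

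The EAE effect differed between the cell types at the cutoff for 15 genes, given as the effect in microglia minus that in astrocytes on the log2 scale. It was larger in microglia for the kinases Cdk1 (3.23), Aurka (2.69), Plk1 (2.14) and Bub1b (2.09), for the motors Kif20a (2.91), Kif23 (2.43) and Cenpe (1.88), and for Tpx2 (2.54), Racgap1 (2.39), Nusap1 (2.38) and Mki67 (1.80). Among the regulators it was larger for Ezh2 (3.14), Stmn1 (2.58) and E2f1 (1.97). It was smaller in microglia for Mcm6 (−2.30). No adjusted limma p of these was under 0.05, and 8 of the 15 stayed called in all 30 fits that left out 1 library.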

How the results depend on the processing

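Counts of called genes among the 45 held their direction in microglia for EAE-vehicle against naive (32, range 25 to 35) and EAE-RIPK1inh against naive (28, range 23 to 31) under every alternative run. Leaving out 1 library gave 26 to 34 and 22 to 30. No called difference among the named genes was reversed. Some that did not pass changed sign without 1 library, and these were not counted. Shares of all genes called are given for the main fits only, so counts from the alternatives have no such share beside them.

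For the inhibitor against vehicle in microglia the count of 0 became 1 with the filter at a mean of 1, 10 with quality weights, and 0 to 6 without 1 library. After the data had been seen, leaving out the 2 libraries with the fewest genes with signal was added and gave 2, and leaving out the library of each group with the most immune markers gave 1. In astrocytes the inhibitor count of 4 became 2 with the filter, 7 without the libraries with the most immune markers and 3 to 6 without 1 library. Against naive, the EAE-RIPK1inh count of 4 became 7 with quality weights, 2 without the libraries with the most immune markers and 3 to 8 without 1 library (8 without EAE-RIPK1inh library 1). The EAE-vehicle count of 7 ran from 4 (without naive library 4) to 8 without 1 library, was 9 with centring, which shifted the median of all genes to 0.16, and with quality weights was 8 higher and 0 lower. The interaction count of 15 for EAE became 9 with centring, 8 with quality weights and 10 to 16 without 1 library, and that of 0 for the inhibitor became 1 with quality weights, 3 without the 2 libraries with the fewest genes with signal, 1 without the libraries with the most immune markers and 0 to 3 without 1 library. The causes were not tested.

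The replicate block gave 25 calls in microglia for EAE-vehicle against naive, 2 in place of 0 for the inhibitor, and 4 in place of 7 in astrocytes for EAE-vehicle against naive. Same-numbered libraries of a cell type had correlated deviations of −0.107 to 0.244 in microglia (over 0.1 in 4 of 13 pairs, and in 6 of 61 other pairs) and −0.166 to 0.085 in astrocytes (0 of 13). Medians were 0.07 for same-numbered and −0.008 for other pairs in microglia, and 0.021 and −0.017 in astrocytes. Paired libraries need not all deviate together, so these values cannot decide whether the numbers mark pairs. The main fits leave the numbers out. For EAE-vehicle against naive microglia the choice matters, with 3 of the 45 genes at an adjusted limma p under 0.05 with the block and 13 without. Depth limits the lowest genes: values in the stretch without signal reached 1.74 in naive microglia library 4 and 2.74 in EAE-vehicle astrocyte library 1, and a level below these there shows no expression either way.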
